A study of Rattus norvegicus with 6 samples.

Results

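The collagen genes of the rat nucleus accumbens shell were taken as every gene symbol in the deposited matrices made of Col, a number, the letter a and a number. This rule gave 42 of 32883 features. Nuclei came from male and female Long-Evans rats, 3 libraries of each sex, and were read by single-nucleus RNA sequencing with unique molecular identifiers (UMIs), which count each captured RNA molecule once. Each library pooled shell punches from 4 animals of 1 sex, kept in same-sex pairs until 90 to 100 days of age, so the replicates are pools and not single animals. The question addressed here was in which neuron, glia and vascular nuclei each collagen was found, and whether its level differed between the sexes. The sample fields of female library 3 and male library 1 were filled in differently from those of the other 4 (they name strain, age and brain region), so the former are called label set A and the latter label set B. The labels do not say what else sets them apart.

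Collagens are triple-helical proteins of the extracellular matrix. Fibrillar collagens form ropes, collagen IV chains form the sheets of basement membranes around blood vessels, and FACIT collagens (fibril-associated collagens with interrupted helices) sit on the surface of fibrils. Other members form beaded filaments, carry heparan sulfate in basement membranes, or span the plasma membrane of the cell that makes them. In the brain, collagen is best known from the vessel wall and the meninges, and several chains are also made by neurons and glia.

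After filters, 34362 nuclei with 188073584 UMIs remained of 41974 barcodes, from 2807 nuclei in female library 2 to 14325 in female library 3. The median depth per nucleus ranged from 3072.5 UMIs in male library 3 to 4822.5 in male library 1. Barcodes over the limit of 5% mitochondrial UMIs made up 1.55% of female library 3 and 2.28% of male library 1, which are label set A. In the libraries of label set B they made up 13.1% to 40.7%. Any 2 libraries shared at most 52 barcodes. Nuclei were grouped into 28 clusters without any collagen gene and named from other markers. There were 21581 neuron nuclei (62.8%), 7271 glia nuclei (21.2%) and 376 vascular nuclei (1.09%), the last with all 8 endothelial and all 8 mural markers found. A further 5057 nuclei with markers of more than 1 class were left out of the class comparisons, and they made up 28.3% of male library 1 against 5.37% to 13.6% of the other libraries. Female library 2 gave only 2 vascular and 9 microglia-like nuclei and was not used for those classes, which therefore rest on 5 libraries.

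Collagens held 135100 UMIs, 0.0718% of all UMIs in kept nuclei, and none of the 42 was at 0. Single members ranged from 23 UMIs for Col23a1 to 40029 for Col11a1. Levels are given as CPM, the UMIs of a gene per 1000000 UMIs of the class and compared for each gene across classes, not between genes. The classes compared here are the 16 with enough nuclei for a test, which are 1 vascular, 4 glial and 11 neuron classes. The fibroblast-like, glutamatergic-like and cholinergic-like nuclei are described apart, and the levels of cluster 19 are not given. In 24 collagens the mean level over the libraries reached 20 CPM in at least 1 of the 16 classes, and these are described with their values. Among these 16 classes, 10 of the 24 had their highest mean in the vascular nuclei, 7 in a glial class and 7 in a neuron class. The other 18 stayed below in all 16, with highest class means of up to 19.84 CPM, though some were higher in fibroblast-like or glutamatergic-like nuclei. The threshold lay between Col9a2 (20.93 CPM in Sst/Npy interneuron-like nuclei) inside the rule and Col15a1 (19.84 CPM in cluster 5) outside it.

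**Figure D1:**
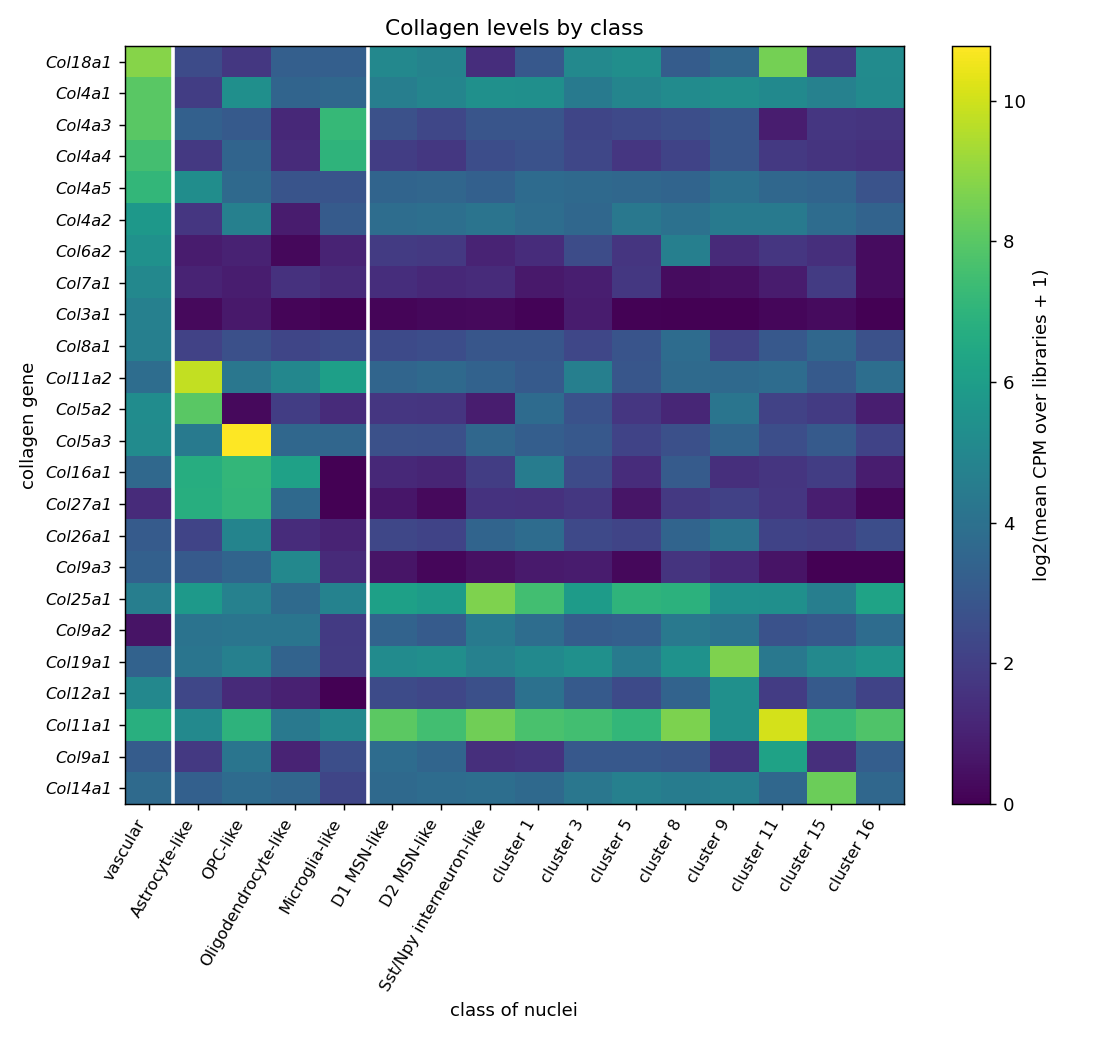
Heat map of the mean level of the 24 collagens that reached 20 CPM (rows) in 16 classes of nuclei (columns), as log2(mean CPM over libraries + 1). White lines part vascular, glial and neuron classes; most rows have 1 to 3 bright classes, such as Col5a3 in OPC-like nuclei (1753 CPM) and Col14a1 in cluster 15 (330.5 CPM).

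Vascular nuclei were rich in 5 of the 6 basement membrane chains of collagen IV. Col4a1, a chain of the most widespread collagen IV trimer, stood at 245.2, 430.9, 245.3, 273.4 and 115.4 CPM in female libraries 1 and 3 and male libraries 1, 2 and 3. In neurons it ranged from 26.53 to 32.33 CPM and in glia from 9.19 to 14.28 CPM over 6 libraries, so the vascular values did not overlap with either. Its log2 difference from the mean of neurons and glia was 3.80 (SE 0.20, adjusted p = 1.08e-12 by edgeR's quasi-likelihood test). Col4a2, its partner chain, stood at 107.3, 41.62, 26.98, 60.77 and 28.84 CPM against at most 17.67 in neurons and 7.92 in glia (2, SE 0.33, adjusted p = 5.93e-05), again with no overlap, but on only 1 to 17 UMIs a library.

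Col4a3, Col4a4 and Col4a5 encode the chains of a second collagen IV network, best known from the filtration barrier of the kidney. Col4a3 stood at 214.6, 271.8, 159.4, 395 and 259.5 CPM in the same vascular libraries and Col4a4 at 260.6, 195.9, 186.4, 151.9 and 144.2 CPM. The highest neuron or glia library was at 17.42 CPM for Col4a3 and 11.4 CPM for Col4a4, and the log2 differences were 4.99 (SE 0.29, adjusted p = 7.24e-12) and 4.85 (SE 0.22, adjusted p = 8.1e-14). Col4a5 was more uneven, at 183.9, 210.6, 181.5, 91.15 and 28.84 CPM, and its lowest library, with 1 UMI, stood close to the highest glia library at 26.92 CPM (3.6, SE 0.32, adjusted p = 1.05e-08). Col4a6 had 287 UMIs in all and reached a mean of at most 4.11 CPM in the 16 classes, against 44.29 and 49.27 CPM in the 2 libraries with fibroblast-like nuclei.

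Collagens outside the collagen IV family were also high in vascular nuclei. Col18a1, a basement membrane collagen with heparan sulfate chains whose end fragment is endostatin, stood at 1104, 499.4, 385, 151.9 and 144.2 CPM against at most 77.87 in neurons and 8.82 in glia (4.81, SE 0.35, adjusted p = 4.09e-10). Its vascular libraries spread widely, and all lay above every neuron and glia library. Col6a2, a chain of beaded filaments, stood at 30.65, 46.52, 46.6, 60.77 and 28.84 CPM against at most 6.62 in neurons (4.66, SE 0.46, adjusted p = 6.11e-08). Col3a1, the fibrillar collagen of vessel walls, rested on 1, 6, 14, 1 and 1 UMIs (15.33, 14.69, 34.34, 30.38 and 28.84 CPM) and was at or under 1 CPM in all neuron and glia libraries (6.51, SE 0.65, adjusted p = 1.08e-07). Col8a1, a short-chain network collagen of endothelium, and Col12a1, a FACIT, were also called higher (3.36 and 2.73 on the log2 scale, adjusted p = 3.9e-06 and 0.000296). Each was at 0 in 2 of the 5 vascular libraries, and Col12a1 was not called without male library 1, which held 33 of its 41 vascular UMIs in those libraries. In label set B alone neither was called, and Col8a1 stood at -0.055 there. Col7a1, the collagen of anchoring fibrils, had a vascular mean of 31.44 ± 18.5 CPM (SD, n = 5) and was too low elsewhere to be tested.

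**Figure D2:**
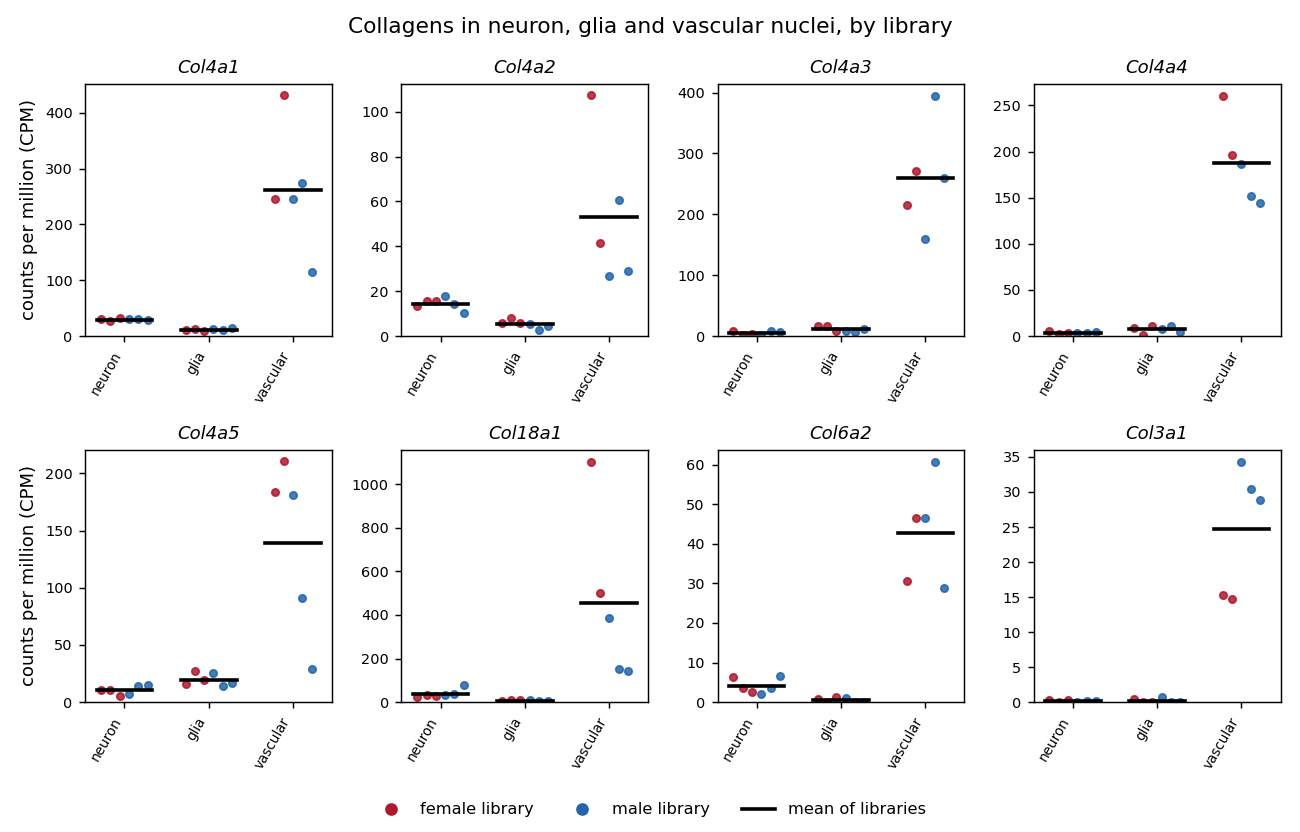
Level in CPM (vertical axes, each from 0) of 8 collagens in neuron, glia and vascular nuclei. Each point is a library, red female and blue male, and the line is the mean; 6 libraries gave neurons and glia and 5 gave vascular nuclei, and in all 8 genes the lowest vascular point lies above the neuron and glia points.

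Of 28 collagens that passed the filter on low counts, 10 were higher and 4 lower in vascular nuclei, where 14.6% of all 12960 genes tested were higher and 15.2% lower. The median log2 difference was -0.05 over these collagens and -0.13 over all genes. The 4 lower were Col9a2 (-3.29), Col11a2 (-1.84), Col25a1 (-1.26) and Col19a1 (-1.21, adjusted p = 0.0344). The call of Col19a1 was lost under several alternatives, among them leaving out female library 3. Vascular nuclei carried neuron markers at 34.1% of the level in neuron clusters, and the part of this in the neuron-type collagens of the class was not tested. Restricted to label set A, 14 collagens were higher and 4 lower, and to label set B, 7 and 1.

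Within the vascular cluster, the nuclei split further into endothelial-like (215), mural-like (70) and a group with both kinds of marker (91). Pooled over libraries, with exact Poisson intervals that cover counting error only, Col4a5 was at 213.8 CPM (95% interval 174.3 to 259.5) in endothelial-like and 48.82 CPM (19.63 to 100.6) in mural-like nuclei. The reverse held for Col18a1, at 33.54 CPM (19.17 to 54.46) and 906.6 CPM (757.5 to 1077), and for Col4a4, at 64.98 CPM (44.15 to 92.23) and 418.5 CPM (319.3 to 538.6). Col4a1 was at 274.6 CPM (229.6 to 325.8) and 216.2 CPM (146.9 to 306.9), and these intervals overlapped. Col3a1 and Col7a1 had 0 UMIs of 477090 in endothelial-like nuclei, which allows up to 7.73 CPM by the interval. In mural-like nuclei they stood at 41.85 and 111.6 CPM. In the group with both kinds of marker, Col3a1 was at 49.75 CPM, Col7a1 at 61.45 and Col12a1 at 102.4. Col3a1 had 17 UMIs there and 6 in mural-like nuclei. Of the fibroblast markers, Dcn was at 61.45 CPM in that group and 66.39 in fibroblast-like nuclei. Lum was at 8.78 and 11.72 CPM, Slc6a13 at 196.1 and 550.7, and Bnc2 at 2.93 and 1035. In mural-like nuclei Slc6a13 was at 369.6 CPM, Dcn at 6.97, and Lum and Bnc2 at 0. Whether fibroblast-like nuclei add to the group with both kinds of marker or to mural-like nuclei was not tested. No test was made between these groups, since single libraries held too few of their nuclei.

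The collagen IV genes sit in head-to-head pairs on the chromosomes, and the starts of both pairs that were higher together in vascular nuclei are shown for that reason. The sequences are RefSeq's, build GRCr8, read on the plus strand, and capitals mark the motif GGGCGG (the GC box) on either strand. Col4a1 runs on the plus strand and Col4a2 on the minus strand of chromosome 16, and the 76 bases between their starts are chr16:84885521-84885596, upstream of both genes. Col4a3 runs on the plus and Col4a4 on the minus strand of chromosome 9 with 412 bases between the starts, and the 88 bases that lie within 250 bases upstream of both are chr9:91323740-91323827.
Col4a1 and Col4a2: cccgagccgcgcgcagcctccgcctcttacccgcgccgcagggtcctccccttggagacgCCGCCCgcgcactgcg
Col4a3 and Col4a4: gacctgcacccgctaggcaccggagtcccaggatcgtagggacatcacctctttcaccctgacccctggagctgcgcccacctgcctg
G and C made up 78.9% of the first stretch, which held 1 GC box, and 65.9% of the second, which held none. The motif TATAAA (the TATA box, either strand) was in neither. In windows of 300 bases around gene starts, GGGCGG was in 5 of the 6 collagen IV genes and in 19 of the 33 collagens with a window. TATAAA was in 0 of the 6 and in 3 of the 33. Over all 33469 single windows the shares were 33.1% and 14.2%. A gene was counted if any of its windows held the motif, and Col4a1 and Col4a2 share the GC box marked above. These are matches of letters only.

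The pairs also went together across classes, though not in the same classes. Over the 16 classes, the correlation of log2(CPM + 1) was 0.857 (Spearman 0.776) for Col4a1 with Col4a2 and 0.96 (Spearman 0.788) for Col4a3 with Col4a4. For Col4a5 with Col4a6, the X-linked pair, it was 0.5 (Spearman 0.397). These points share libraries and depth, and the values are descriptions. For other collagens that are direct neighbours in the RefSeq gene order, the value was 0.803 for Col6a1 with Col6a2, 0.363 for Col3a1 with Col5a2 and -0.101 for Col9a1 with Col19a1.

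Most partners of collagen in the basement membrane were higher in vascular nuclei as well. Of 11 basement membrane genes tested (laminins, nidogens and others, 14 of 16 listed found in the files), 9 were higher and 0 lower, where 14.6% of all genes were higher and 15.2% lower. Of 15 biosynthesis and secretion genes 7 were higher and 1 lower, and of 9 receptors 4 were higher and 1 lower. Of 7 processing and crosslinking genes 2 were higher and 0 lower, and of 6 degradation genes 2 were higher and 1 lower. The 3 partner genes with the greatest change were Itga1, the alpha 1 subunit of a collagen-binding integrin (6.51, SE 0.24, adjusted p = 3.34e-15), and the laminin chains Lamc3 (6.30, SE 0.28) and Lamb2 (5.81, SE 0.20).

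Single collagens differed between neurons and glia, in about the share seen over all genes. Of the 28 tested, 11 were higher and 11 lower in neurons than in glia, where 32.7% of all 12960 genes were higher and 34.7% lower, and the median log2 difference was 0.14 over the collagens and -0.04 over all genes. The glia-rich group was led by fibrillar chains. Col27a1, a fibrillar collagen of developing cartilage, ranged from 40.35 to 114 CPM in glia (median 64.78) and from 0.755 to 1.68 in neurons (median 1.08), a log2 difference of -5.80 (SE 0.19, adjusted p = 1.25e-16). Col5a3, a minor fibrillar chain, ranged from 176.1 to 478.1 CPM in glia (median 262.9) and from 3.64 to 11.33 in neurons (-5.48, SE 0.22). Col11a2, a chain of the cartilage collagen XI, ranged from 205.1 to 506.6 CPM in glia and from 8.47 to 16.77 in neurons (-4.95, SE 0.15). Every glia library stood above every neuron library for these 3 genes. The FACITs Col9a3 (-4.91) and Col16a1 (-4.53) and the fibrillar chain Col5a2 (-3.70) were also lower in neurons.

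Col5a2, Col19a1 and Col24a1 were higher in neurons of both libraries of label set A than in all 4 of set B. Col5a2 stood at 21.49 CPM in female library 3 and 13.38 in male library 1, and between 2.29 and 4.67 in the 4 libraries of set B. Glutamatergic-like neurons, with 1639 nuclei in female library 3, 432 in male library 1 and 2 in the other libraries together, carried Col5a2 at 60.05 and 57.03 CPM in those 2 libraries. Without these clusters the neuron level was 6.27 and 4.66 CPM in them, and Col5a2 stayed lower in neurons than in glia. Col19a1 stood at 77.27 and 59.03 CPM in set A and 39.34 to 49.61 in set B, and at 57.17 and 47.86 in set A without these clusters. Col24a1 stood at 25.11 and 15.4 CPM in set A and 7.20 to 12.01 in set B, and at 10.89 and 6.19 in set A without them, so that both genes then overlapped between the sets.

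On the neuron side stood Col11a1, the other collagen XI chain. It ranged from 188.7 to 370.4 CPM in neurons (median 211.6) and from 26 to 59.2 in glia (median 36.95), with no overlap (2.59, SE 0.18, adjusted p = 3.3e-11). Thus the 2 collagen XI genes were raised on opposite sides. Col18a1 (2.54), Col6a2 (2.18), the fibrillar chain Col24a1 (2.17), the FACIT Col19a1 (2) and the membrane-spanning collagen Col25a1, which is known for its extracellular part in amyloid plaques (1.40), were higher in neurons. So were Col4a1 (1.45, SE 0.18) and Col4a2 (1.5, SE 0.20), while Col4a3 (-1.19), Col4a4 (-1.14) and Col4a5 (-0.98) were lower. Neurons held 77.0% of all Col4a1 UMIs and 75.3% of the UMIs of all genes. The few vascular nuclei held 5.43% and 0.512%.

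Neuron transcripts were also found in glia, which bears on the glial values of these genes. The neuron marker Syt1 in glia was at 4.92% to 18% of its neuron level over the 6 libraries, Snap25 at 12.9% to 25.1% and Rbfox3 at 20.8% to 38.7%. Col11a1 in glia was at 10.1% to 29.6% of its neuron level, Col18a1 at 3.99% to 29.6% and Col25a1 at 25.9% to 51.2%. How far free RNA from neurons makes up the glial level of these collagens was not tested.

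Among the partner genes, 11 of 15 biosynthesis and secretion genes were lower in neurons and 3 higher, where 34.7% of all genes were lower and 32.7% higher. Of 9 receptors 6 were lower and 1 higher, and of 11 basement membrane genes 6 were lower and 3 higher. Processing and crosslinking genes were balanced, with 3 higher and 3 lower of 7, and of 6 degradation genes 2 were lower and 1 higher. The 3 with the greatest change were the membrane-bound matrix protease Mmp14 (-4.76, SE 0.31), the collagen chaperone Serpinh1 (-3.95, SE 0.21) and the lysyl hydroxylase Plod1 (-3.80, SE 0.17).

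In glia, 14 collagens passed the filter on low counts. Each of the 4 glial classes was set against the mean of the others, so the 4 differences of a gene sum to 0. The calls of a class are thus in part the mirror of those in the others. Microglia-like nuclei stood at -9.10 for Col16a1 and -8.20 for Col27a1, which raises the differences of the other classes in these genes. Astrocyte-like nuclei were marked by Col5a2 and Col11a2. Col5a2 ranged from 151 to 403.6 CPM over the 6 libraries (median 251.4) and was between 0 and 7.59 CPM in each library of the other glial classes (7.23, SE 0.25, adjusted p = 4.32e-20). Col11a2 ranged from 596.9 to 1197 CPM (median 908.2) against at most 97.88 in the libraries of the others (4.80, SE 0.12, adjusted p = 1e-22). Neither gene overlapped between astrocyte-like nuclei and the rest of the glia. Astrocyte-like nuclei had 7 collagens higher and 5 lower than the mean of the other glial classes, where 28.2% of all 9770 genes tested were higher and 19.7% lower. Col4a5 was among the higher (2.39, SE 0.23), and Col4a1 (-1.88), Col4a4 (-2.39) and Col5a3 (-1.45) were among the lower.

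OPC-like nuclei, the oligodendrocyte precursors, were set apart by Col5a3. It ranged from 1174 to 2197 CPM (median 1864), while no library of another glial class passed 33.06 CPM (6.95, SE 0.13, adjusted p = 5.15e-26). Female library 3 was lowest and female library 2 highest, and all 6 stood far above the other classes. Col4a1 and Col4a2, at medians of 38.23 and 25.27 CPM, were higher in OPC-like than in other glial nuclei (2.33, SE 0.28 and 2.92, SE 0.36), and so was Col11a1 (2.02, SE 0.21). Col26a1, a small collagen of developing gonads, had its highest mean of the 16 classes here, at 11.58 to 40.8 CPM (median 30.12), and did not pass the filter in glia. In OPC-like nuclei 7 collagens were higher and 2 lower, where 23.3% of all genes were higher and 19.5% lower. The lower were Col11a2 (-2.74) and Col5a2 (-4.20, adjusted p = 0.0153). Col5a2 had 1 UMI there, in female library 3, and lost its call without male library 1.

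Col16a1, a FACIT of cell adhesion, and Col27a1 were shared by astrocyte-like and OPC-like nuclei. Col16a1 ranged from 81.6 to 130.6 CPM in astrocyte-like, 93.81 to 168.3 in OPC-like and 55.43 to 80.81 in oligodendrocyte-like nuclei. Col27a1 ranged from 69.43 to 148.8 CPM in astrocyte-like, 91.79 to 172.5 in OPC-like and 3.53 to 20.79 in oligodendrocyte-like nuclei. The ranges of the first 2 classes overlapped in both genes. Microglia-like nuclei had 0 UMIs of either gene among 628780 in 5 libraries, which allows up to 4.77 CPM, so that Col16a1 was at least 21.8-fold and Col27a1 at least 17.8-fold lower there than the mean of the other glial classes. Over the 16 classes the log2 levels of these genes had a correlation of 0.892 (Spearman 0.829).

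Oligodendrocyte-like nuclei had few collagens. Col9a3, a chain of the FACIT collagen IX, ranged from 26.42 to 36.32 CPM there (median 33.1), above all other glial libraries (2.74, SE 0.27, adjusted p = 1.02e-09). Col16a1 was the only other collagen called higher (2.53, SE 0.38) by this test. Its level was below that in astrocyte-like and OPC-like nuclei, and the mean of the others includes microglia-like nuclei, with 0 UMIs of it. By the same test 8 collagens were lower, where 24.7% of all genes were higher and 24.6% lower. Among the lower were Col4a3 (-3.30), Col4a4 (-2.67), Col5a3 (-2.43) and Col4a2 (-2.33). The other collagen IX chains did not follow Col9a3: over the 16 classes its log2 level had a correlation of 0.0266 with Col9a2 and -0.194 with Col9a1.

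Microglia-like nuclei carried the paired Col4a3 and Col4a4. Col4a3 stood at 189.4, 195.1, 159.4, 96.21 and 97.88 CPM in female libraries 1 and 3 and male libraries 1, 2 and 3 (5.07, SE 0.36, adjusted p = 9.91e-13). Col4a4 stood at 98.21, 144.9, 151.8, 180.4 and 54.38 CPM in the same order (4.66, SE 0.32, adjusted p = 3.21e-13). All 5 libraries stood above every library of the other glial classes in both genes. These 2 collagens were higher and 6 lower in microglia-like nuclei, where 16.8% of all genes were higher and 24.4% lower. Without male library 1, 5 collagens were called in place of 8. Of the other chains, Col4a1, Col4a2 and Col4a5 had 0 to 4 UMIs in each of these libraries.

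Vessel markers were low in the same microglia-like nuclei. The 8 endothelial markers summed to 72.46 to 144.2 CPM there, 2 of them at 0, against 3778 to 7044 CPM in vascular nuclei. The endothelial receptor Flt1 was at 20.46 ± 10.7 CPM in microglia-like and 2313 ± 611 CPM in vascular nuclei (SD, n = 5). The microglial receptor Csf1r was at 969.1 ± 280 CPM in microglia-like and 6.01 ± 6.61 CPM in vascular nuclei, and Cx3cr1 was at 0 in the latter.

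**Figure D3:**
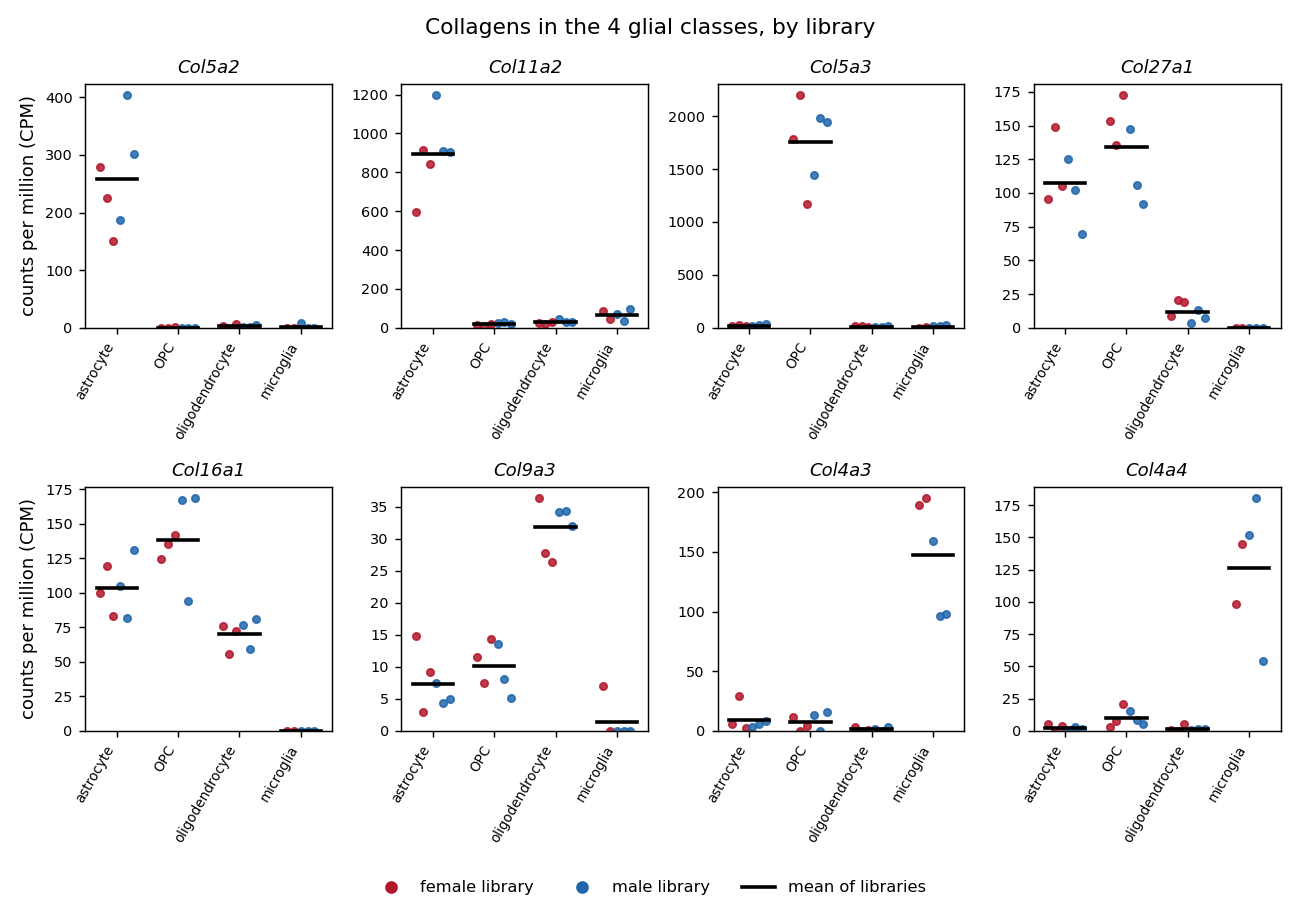
Level in CPM (vertical axes, each from 0) of 8 collagens in astrocyte-like, OPC-like, oligodendrocyte-like and microglia-like nuclei. Points are libraries, red female and blue male, and lines are means over 6 libraries (5 for microglia-like); Col5a2 and Col11a2 peak in astrocyte-like, Col5a3 in OPC-like, Col9a3 in oligodendrocyte-like and Col4a3 and Col4a4 in microglia-like nuclei.

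Glial partner genes differed by class too. In astrocyte-like nuclei 6 of 14 biosynthesis and secretion genes were higher and 1 lower (28.2% and 19.7% of all genes), and the genes with the greatest change were the collagen receptor Lair1 (4.65, SE 0.23), the laminin chain Lama2 (3.96, SE 0.17) and the lysyl hydroxylase Plod2 (3.86, SE 0.44). In OPC-like nuclei 4 of 6 basement membrane genes were higher and 2 lower (23.3% and 19.5% of all genes), led by the laminin chain Lama4 (5.74, SE 0.18), with the prolyl 3-hydroxylase P3h2 (3.37, SE 0.38) and the endocytic collagen receptor Mrc2 (-3.10, SE 0.65). In microglia-like nuclei Mrc2 was raised (6.31, SE 0.30), with the gelatinase Mmp2 (5.05, SE 0.41), while Plod2 was lower (-5.87, SE 1.66). In oligodendrocyte-like nuclei Adgrg6, an adhesion receptor that binds collagen IV, was higher (4.24, SE 0.18), and Mmp2 (-3.99, SE 0.75) and the related receptor Adgrg1 (-3.19, SE 0.18) were lower.

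Among neurons, 3 named classes had at least 20 nuclei in each library. These were D1 and D2 MSN-like nuclei, the medium spiny projection neurons of the direct and indirect pathway, and Sst/Npy interneuron-like nuclei. The interneurons stood apart. Col25a1 ranged from 251.4 to 604.2 CPM in them (median 441.5), from 46.11 to 100.4 in D1 MSN-like (median 58.88) and from 46.23 to 79.02 in D2 MSN-like nuclei (median 51.77), so the interneuron values did not overlap with either MSN class (2.58, SE 0.08, adjusted p = 9.65e-31). Col2a1, the main cartilage collagen, ranged from 7.54 to 25.79 CPM in the interneurons and reached at most 1.51 in the MSN classes (5.37, SE 0.46, adjusted p = 5.66e-14). Col6a6, a long chain of beaded filaments, ranged from 7.33 to 47.16 CPM against at most 5.49 (3.09, SE 0.44). Both have a highest class mean just under 20 CPM and are named here after their values were seen.

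Of 25 collagens tested, 6 were higher and 4 lower in Sst/Npy interneuron-like nuclei, where 20.5% of all 12259 genes were higher and 19.1% lower. The lower ones included Col18a1 (-3.06, SE 0.48) and Col9a1 (-2.90, SE 0.56), which were therefore higher in both MSN classes: with 3 classes, each set against the mean of the other 2, the differences of a gene sum to 0, and the MSN values are in part the mirror of the interneuron value. For these genes D1 and D2 MSN-like nuclei were not tested against each other. D1 MSN-like nuclei had 3 collagens higher and 5 lower (17.1% and 16% of all genes), and D2 MSN-like nuclei 4 and 6 (17.0% and 17.9%). Col11a1 was lower in D2 MSN-like nuclei (-0.69, SE 0.06), at 125.3 to 285.7 CPM (median 152.9) against 194.4 to 435.7 in D1 MSN-like nuclei (median 213.3). These ranges overlapped, and the D1 value was above the D2 value in each of the 6 libraries. Among partners, the basement membrane genes Nid1 (4.63, SE 0.31) and Lama4 (3.6, SE 0.24) and the crosslinking enzyme Loxl1 (2.79, SE 0.47) were higher in the interneurons, and 8 of 12 biosynthesis and secretion genes were higher and 1 lower (20.5% and 19.1% of all genes). The changes of these genes in the MSN classes mirror this and are not given apart.

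Neuron clusters that no marker list named are called by number, and 8 of them with at least 20 nuclei in each library were added, after the data were seen, in a second fit with the 3 named classes. The clusters were made without collagens but from the same nuclei, so the tests say how steady a difference was over the 6 libraries. Cluster 11, led by Hpse, Slfn5 and Tll1, had 3 collagens higher and 5 lower of 18 tested, where 23.2% of all 10922 genes were higher and 21.1% lower. Col11a1 ranged from 899.9 to 1374 CPM in it (median 962.4), above all libraries of the other neuron classes tested (2.50, SE 0.08, adjusted p = 7.89e-40). Col9a1, a collagen IX chain, ranged from 33.14 to 109.2 CPM (3.87, SE 0.17), also above all of them. Col18a1 was at 432.2, 340.9 and 58.92 CPM in female libraries 1 to 3 and 169.9, 254.9 and 945.2 in male libraries 1 to 3 (4.36, SE 0.23). Both lowest values are from label set A, and the highest is male library 3. Cluster 19, with 279 nuclei, also has Hpse, Slfn5 and Tll1 among its leading genes. It was left out of this fit, as it had 4 to 11 nuclei in each library of label set B. Its levels of these 3 collagens are not given here.

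Cluster 9, led by Il1rapl2, Egfr and Kit, was marked by Col19a1, a FACIT that has been tied to inhibitory synapses. Col19a1 ranged from 332.9 to 550.3 CPM in it (median 389.6), while no other neuron class tested passed a mean of 45.92 CPM (3.68, SE 0.09, adjusted p = 6.56e-47). Col12a1 (2.30, SE 0.22), Col26a1 (2.87, SE 0.26) and Col5a2 (2.81, SE 0.27) were higher in it too, and Col11a1 was lower, at 10.4 to 71.23 CPM (-2.06, SE 0.14). In all, 7 of 18 collagens were higher and 4 lower, where 20.7% of all genes were higher and 16.6% lower. Without female library 3 or without male library 1, 6 collagens were called in place of 11. Col9a1 and Col19a1 are neighbours on the chromosome and were raised in different clusters.

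Cluster 15, led by Chst9 and Grm8 with the opioid receptor Oprm1, was marked by Col14a1, a FACIT that binds collagen I fibrils. Col14a1 ranged from 253 to 442.1 CPM in its libraries (median 322.2), and the mean of the next class was 25.2 CPM in cluster 5 (4.63, SE 0.11, adjusted p = 2.76e-48). Cluster 15 had 3 collagens higher and 8 lower, where 13.8% of all genes were higher and 16.3% lower. Without female library 3 or without male library 1, 7 were called in place of 11. Col25a1 was among the lower (-2.20, SE 0.21) and Col8a1 among the higher (1.32, SE 0.25).

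Cluster 5, led by Mdfic and Eya2 and with 2 eccentric MSN markers, had the highest level of Col15a1, a collagen close to Col18a1. It ranged from 12.22 to 27.69 CPM there (3.47, SE 0.23, adjusted p = 3.66e-21). In cluster 5, 4 collagens were higher and 6 lower (17.3% and 17.1% of all genes). In cluster 1, led by Lypd6b and Lhx8, 7 were higher and 6 lower (29.8% and 25%), with Col25a1 at 82.46 to 263.2 CPM (1.14, SE 0.11) and Col5a2 (1.97, SE 0.26) among the higher. Without female library 3, 7 collagens were called there in place of 13.

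In cluster 8, led by Bnc2, Reln and Prlr, 6 collagens were higher and 2 lower (20.7% and 17.6% of all genes), with Col11a1 at 260.4 to 602.8 CPM (0.75, SE 0.09). Without female library 3, 3 were called there, and without male library 1, 5. Cluster 8 also had the highest neuron mean of Col6a2, 24.24 ± 17.1 CPM (SD, n = 6), with 6.33 and 5.05 CPM in label set A and 22.76 to 50.37 in set B, and Col6a2 was not in this fit. In cluster 16, led by Nts, Fosb and Nr4a3, 3 were higher and 0 lower (20.6% and 15.7%), with 5 at an unadjusted p under 0.05 in either direction, and without female library 3 or male library 1 only 1 was called by edgeR. In cluster 3, led by Hba-a1, Cck and Calm2, 2 were higher and 4 lower (28.0% and 32.8%). Its leading genes also include Cfl1, Ubb and Tmsb4x. In it 2 of 6 D1 MSN, 2 of 6 D2 MSN and 2 of 7 cholinergic markers were raised. Whether it is a single kind of neuron was not tested. Col11a2 was among the higher in cluster 3 (1.38, SE 0.16).

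**Figure D4:**
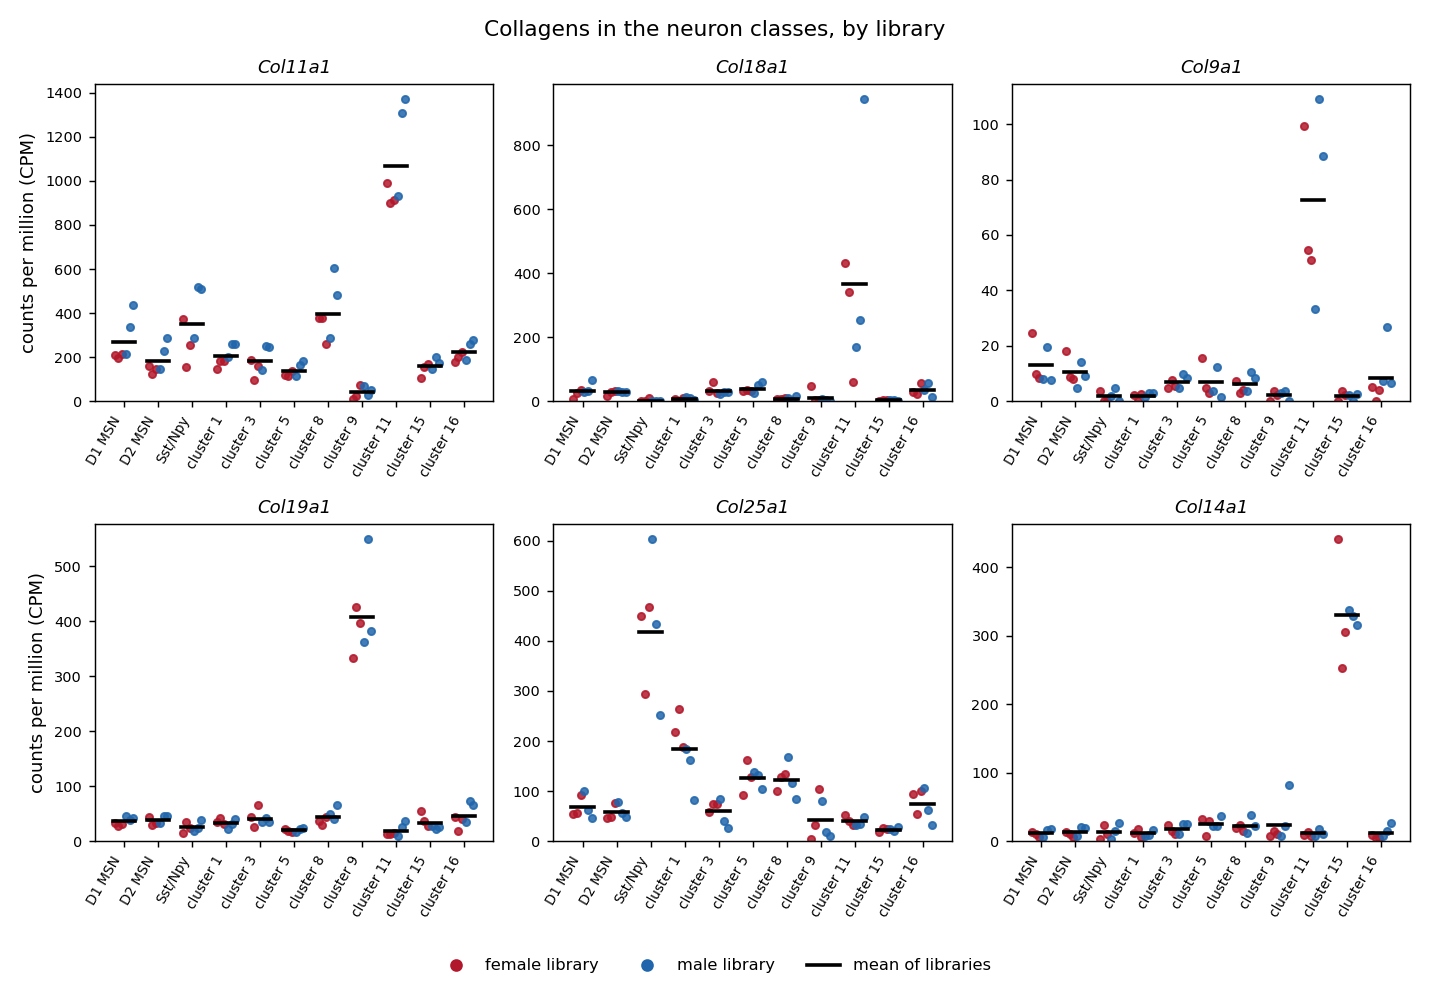
Level in CPM (vertical axes, each from 0) of 6 collagens in 11 neuron classes. Points are libraries, red female and blue male, and lines are means over 6 libraries; Col11a1, Col18a1 and Col9a1 peak in cluster 11, Col19a1 in cluster 9, Col25a1 in Sst/Npy interneuron-like nuclei and Col14a1 in cluster 15.

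Classes with too few nuclei in some libraries, other than cluster 19, were described only. Glutamatergic-like neurons of female library 3 and male library 1 carried Col11a1 at 170.5 and 164.6 CPM, Col19a1 at 128.2 and 114.9 CPM and Col24a1 at 61.15 and 61.52 CPM. Cholinergic-like neurons ranged from 30.64 to 298.3 CPM for Col11a1 over the 4 libraries with at least 20 of them. A fibroblast-like cluster of 77 nuclei, 50 of them from female library 3 and 26 from male library 1, held 29.5% of all Col3a1 UMIs (109.4 CPM, 95% Poisson interval 72.66 to 158). It also carried Col12a1 at 249.9 CPM (192.5 to 319.2), Col4a5 at 374.9 CPM (303.7 to 457.8) and Col1a1, the main fibril collagen, at 144.5 CPM (101.7 to 199.2). Neuron markers were at 44.4% of the neuron level in that cluster, and their part in these values was not tested.

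The 18 collagens below 20 CPM in all 16 classes had between 23 and 2781 UMIs each. In fibroblast-like nuclei of female library 3 and male library 1 some passed that level, with means of 140.2 CPM for Col1a1, 91.86 for the short-chain Col8a2, 71.53 for the membrane-spanning Col13a1 and 55.64 for Col5a1. Of the 16 classes, 11 are neuron and 4 glial classes. Over these classes the highest mean lay in neurons for 12 of the 18 collagens, in glia for 4 and in vascular nuclei for 2. The last 2 were Col1a1 and Col6a1, and the vascular median of Col1a1 was 0. Several of the highest means were low, such as 0.53 CPM for Col23a1 and 2.18 CPM for Col8a2. Col24a1 had the most UMIs, 90.0% of them in neurons, which held 75.3% of the UMIs of all genes. It had 2502 UMIs in neurons and 1093 without the glutamatergic-like clusters, and ranged from 7.52 to 24.48 CPM in cluster 1. Col5a1, a fibrillar chain, and Col1a1 were found in cluster 15 at 9.53 to 21.68 and 6.63 to 15.56 CPM, while D1 MSN-like nuclei did not pass 0.124 and 1.89 CPM. In the RefSeq annotation, 23 of the 42 overlap another gene and 7 a protein-coding one, among them Col1a1 with Sgca and Col20a1 with Chrna4. No label or header says whether reads were counted by strand, so the levels of overlapping genes are uncertain.

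No collagen differed between the sexes at an adjusted p under 0.05. Female and male libraries were compared over all nuclei, neurons, glia and 6 single classes, with the label set as a term, and 0 of 173 collagen tests passed by edgeR, with a smallest adjusted p of 0.6365. In the same 9 comparisons 6 to 8 of all genes were called in either direction, which was 0.0432% of all genes over all nuclei, 0.0451% in neurons, 0.0590% in glia, 0.0552% in D1 MSN-like, 0.0598% in D2 MSN-like, 0.136% in Sst/Npy interneuron-like, 0.0678% in astrocyte-like, 0.0892% in oligodendrocyte-like and 0.101% in OPC-like nuclei. At an unadjusted p under 0.05 there were 20 of 173 collagen results by edgeR and 14 by DESeq2. Of all gene tests in these comparisons, 5.97% and 4.02% passed that threshold. DESeq2 made 0 collagen calls as well. The 9 comparisons share libraries and nuclei, so a gene can be counted more than once. Of the 32 collagens tested for a sex difference that varied between neurons and glia, 0 were called by edgeR and 1, Col26a1, had an unadjusted p under 0.05, where 0% of all genes were called.

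Col11a1 was among the collagens with a low unadjusted p over all nuclei. It stood at 182, 178.3 and 191.6 CPM in female libraries 1 to 3 and at 219.6, 283.8 and 317.5 CPM in male libraries 1 to 3, and the groups did not overlap (female minus male -0.49 on the log2 scale, SE 0.15, adjusted p = 0.6365). Within label set A the values were 191.6 and 219.6 CPM, and in set B all female values were below all male ones. Col11a2 stood at 38.24, 49.18 and 54.17 CPM in females and 96.86, 56.28 and 66.9 in males (-0.55, SE 0.16, adjusted p = 0.6365). Male library 1, highest for Col11a2, also had the largest share of nuclei with mixed markers, which held 38.7% of all Col11a2 UMIs, and the part of this in the difference was not tested. Over all nuclei 7 of the 42 collagens did not overlap between the sexes, with the male libraries above the female in each, and none of them passed the correction. Of all 18905 genes with at least 20 UMIs, 6.43% did not overlap, and in 4.85% all male libraries were above the female.

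**Figure D5:**
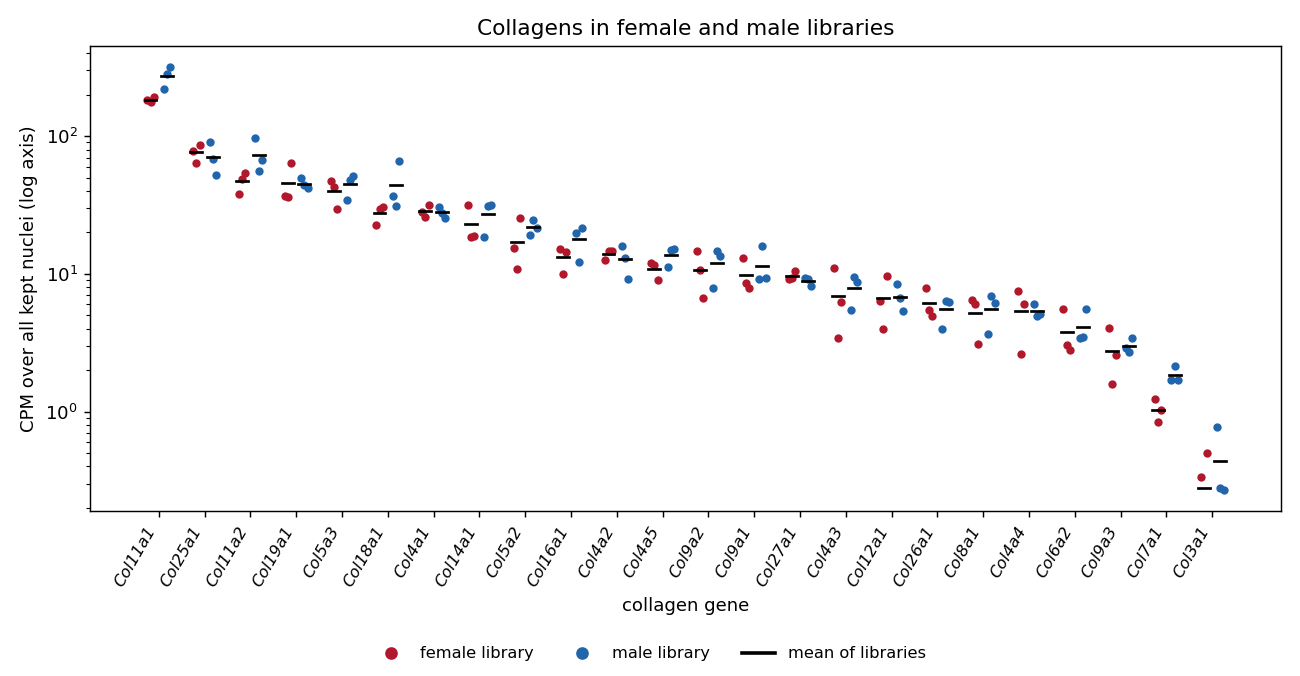
Level over all kept nuclei in CPM (logarithmic vertical axis) of the 24 collagens that reached 20 CPM in a class, by sex. Points are libraries, 3 female in red and 3 male in blue, lines are means, and a library at 0 (Col3a1 in female library 2) is not drawn; for most genes the points of both sexes overlap.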

How the data were processed

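Whole UMI counts per gene and nucleus were deposited by the authors as 1 matrix per library, made with Cell Ranger 4.0.0 per the file headers and on rn6 per the submitters' processing notes, with no normalization. No source used here names the annotation release. Barcodes with at least 500 UMIs, 300 genes and at most 5% mitochondrial UMIs were kept, and the nuclei with the highest Scrublet scores were removed at 0.8% per 1000 nuclei (3094 in all). Nuclei were clustered with scanpy 1.11.5 (Leiden, igraph 0.11.9) without collagens, their partner genes, sex-linked or mitochondrial genes, and named from marker lists. Counts were summed per library and class where it had at least 20 nuclei (10 for vascular) and tested with edgeR 4.0.16 in R 4.3.3 (TMM, quasi-likelihood, Benjamini-Hochberg adjustment over all genes tested, calls at 0.05). Class contrasts had the library as a block, and sex contrasts the label set as a term. Each replicate is a pool of 4 animals, so p-values measure the spread between pools.

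The collagens, partner lists and tests were chosen with earlier results of these data known. Values by library are given for collagens with a class mean of at least 20 CPM, and for partners the 3 called genes with the largest change in a contrast. Alternatives were DESeq2 1.42.0, another normalization, no filter on low counts, at least 1000 UMIs, doublets kept, no replicate block, each label set alone, and each library left out. Correlations of class means used log2(CPM + 1). Replicate numbers did not pair female with male libraries (correlations of deviations of -0.771, 0.263 and -0.633), and no 2 libraries of a sex agreed within sampling noise. The scripts were tested on simulated data.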

Additional observations from a re-analysis of the deposited data

How the results depend on the processing

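Counts of called collagens, both directions together, mostly held within 1.5 times across the alternatives. Restricted to label set B, 8 of the 14 vascular calls were left, and the fit over all neuron clusters gave 6 calls in cluster 1, 4 each in clusters 8, 9 and 15, 5 in cluster 5, 5 in D1 MSN-like, 3 in D2 MSN-like and 3 in Sst/Npy interneuron-like nuclei. Restricted to set A, cluster 3 had 12 in place of 6. With no filter on low counts there were 12 in cluster 3, 15 in cluster 8, 19 in cluster 9, 5 in cluster 16 and 10 in Sst/Npy interneuron-like nuclei. With no replicate block for the library, the fit of named neuron classes gave 5 in place of 8 in D1 MSN-like and 4 in place of 10 in D2 MSN-like nuclei, and the fit over all neuron clusters gave 2 in cluster 3, 5 in cluster 5, 5 in cluster 8 and 4 in D2 MSN-like nuclei. For sex, the fit with the replicate number as a block made 0 calls, as without it, and the numbers do not pair the libraries. The cause of these shifts was not tested. A label set alone has fewer libraries, and with no filter more genes are tested.

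With 1 library left out at a time, the calls ranged from 21 to 24 for neurons against glia, 13 to 15 in vascular, 9 to 12 in astrocyte-like, 6 to 10 in OPC-like, 7 to 12 in oligodendrocyte-like and 5 to 9 in microglia-like nuclei. They ranged from 6 to 10, 8 to 11 and 10 to 12 in D1 MSN-like, D2 MSN-like and Sst/Npy interneuron-like nuclei, and from 0 to 0 between the sexes. In the fit over all neuron clusters they ranged from 7 to 16 in cluster 1, 4 to 9 in cluster 3, 7 to 10 in cluster 5, 3 to 10 in cluster 8, 6 to 15 in cluster 9, 6 to 9 in cluster 11, 7 to 12 in cluster 15, 1 to 4 in cluster 16, 7 to 13 in D1 MSN-like, 6 to 12 in D2 MSN-like and 5 to 7 in Sst/Npy interneuron-like nuclei. The 6 calls in D2 MSN-like nuclei were those without male library 1. Of 200 single calls of a collagen in a class, 110 were kept under every alternative that gave a result for the gene. An alternative without a result was not counted as a loss: in OPC-like nuclei Col4a2 had 11 alternatives and Col5a3 14. In label set B alone 3 of the 200 calls changed sign. These were Col8a1 in vascular nuclei (-0.055), Col4a5 in oligodendrocyte-like nuclei (0.23) and Col24a1 in cluster 9 (-0.31). Depth limits the vascular and microglia-like values most, since several rest on 1 to 5 UMIs in a library.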
